A study of Mus musculus with 48 samples.

Results

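Lungs of juvenile FCG mice that had breathed 95% oxygen as newborns and then recovered in room air were compared with lungs of room air controls at postnatal day 21 (P21), with the genotypes pooled. The members are 24 of the 48 animals in the series, 12 exposed to hyperoxia (O2) and 12 kept in room air (RA), and every animal whose title gives P21 was taken. In the FCG model, here on C57BL/6J, the testis-determining gene Sry is removed from the Y chromosome and carried by an autosome. Gonads and sex chromosomes are therefore inherited apart, so that XXF and XYF mice carry ovaries while XXM and XYM mice carry testes. Each of the 4 genotypes gave 3 exposed and 3 room air animals, and genotype entered the model as a block. Both arms carry the same FCG alleles, and the Sry transgene of XXM and XYM mice is not under the control of its native locus. The series description dates the oxygen to days 1 to 5, whereas the methods of the study end it 1 day earlier, and either way the lungs had more than 2 weeks of recovery. The other 24 animals, taken at the end of exposure and named P5 in the study, enter only where the effect at P21 is set against the earlier one.

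Oxygen given to newborn mice during the saccular and early alveolar stages of lung growth is a standard model of bronchopulmonary dysplasia, the chronic lung disease of preterm infants. Alveoli form as ridges of epithelium, capillary and fibroblast are raised from the walls of larger airspaces, and this needs dividing progenitors, elastic fibres laid down by myofibroblasts, and WNT, BMP and FGF signals passed between the layers. High oxygen stops cell division and activates p53 and NRF2, the regulators of DNA damage and oxidant responses. Most of the acute response ends with the exposure, while the simplified alveolar structure can remain.

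The values are raw read counts per gene from poly(A) RNA of flash frozen whole lung, and levels are given as CPM, the reads of a gene relative to the scaled size of its library. Depth moved with treatment. The room air libraries held 6042939 to 23552915 counts with a median of 9243258, and the exposed ones 13088156 to 31348391. All 24 animals matched their label for Y-linked transcripts, with Ddx3y between 0 and 0.74 CPM in XX and between 37.3 and 81.8 CPM in XY lungs. The 10 markers of lung checked were expressed in every animal, and Sftpc, the surfactant protein of alveolar type 2 cells, ranged from 19150 to 40980 CPM. Animal 34, an XXF mouse in room air, has a title that says P21 and an age field that says day 5. It was kept at P21, where its rank correlation with the mean of the room air animals was 0.992 against 0.956 with the P5 mean. In whole lung, fewer cells of a type and less RNA per cell cannot be told apart.

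Of 17937 genes tested, 906 were higher and 1015 lower after hyperoxia at an adjusted p under 0.05 (edgeR quasi-likelihood test, Benjamini-Hochberg), which is 5.05% and 5.66% of genes. These genes are said to have risen or fallen in what follows. Most changes were small. The median log2 fold change was 0.271 among genes that rose and -0.523 among genes that fell, against 0.00207 over all genes tested. When at least a 1.5-fold change was asked for as well, 135 genes rose and 446 fell (3.24% of genes), so that falls made up 76.8% of the larger changes against 52.8% of all changes. Of the 1921 genes, 1816 (94.5%) had the same sign in all 4 genotypes. They were called on the pooled effect of the same animals, which favours genes with 1 direction, so the share is no evidence of a shared response. P-values measure the spread between animals, and the biological coefficient of variation was 0.216.

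**Figure D1:**
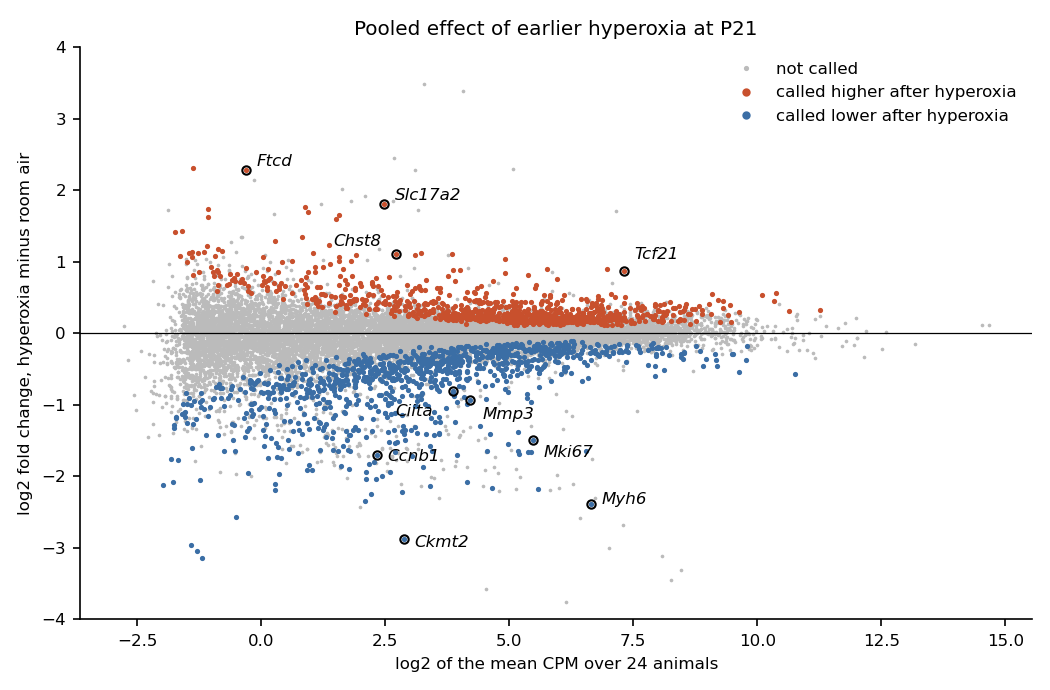
Each dot is 1 of 17937 genes, with the log2 of its mean CPM over 24 lungs on the horizontal axis and its log2 fold change, hyperoxia minus room air, on the vertical axis. Red dots are the 906 genes that rose and blue dots the 1015 that fell at an adjusted p under 0.05, and circles mark 10 named genes from Ckmt2 at -2.88 to Ftcd at 2.28. The value of Ftcd was 1.02 without exposed XXF animal 51, a lung high in liver genes.

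In 10 genes (0.0558% of those tested) the 12 exposed animals did not overlap the 12 room air animals at all. Higher after hyperoxia were Tcf21, Chst8, Hotairm1 and Dpyd, and lower were Mmp3, Ciita, Ulbp1, Gbp5, H2-Q5 and Uba7. Tcf21 encodes a transcription factor of lung mesenchyme that is kept in lipofibroblasts. The gene (ENSMUSG00000045680) lies on chromosome 10 at 22817281 to 22820174 of GRCm38, minus strand. Its level ran from 79.7 to 148 CPM in room air with a median of 105, and from 155 to 272 CPM after hyperoxia with a median of 201. The lowest exposed lung thus stood just above the highest room air lung, and the fold change was 1.82 (log2 0.86 ± 0.11 SE, adjusted p = 9.066e-05, edgeR). Chst8, a sulfotransferase that acts on carbohydrate chains, was between 2.48 and 5.95 CPM (median 4.17) in room air and between 6.2 and 12.3 CPM (median 8.69) after hyperoxia. The difference was 2.15-fold (log2 1.10 ± 0.14, adjusted p = 9.066e-05). Dpyd, which encodes the first enzyme of pyrimidine breakdown, rose 1.49-fold, with the highest control at 12.4 and the lowest exposed lung at 12.6 CPM. Hotairm1, a noncoding RNA of the Hoxa cluster, rose 1.57-fold from a median of 3.89 to 6.12 CPM. It lies antisense to a Hox gene, and the strand setting of the counting is not stated in the sources at hand, so its reads cannot be told with certainty from those of its partner.

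Mmp3 (ENSMUSG00000043613, chromosome 9 at 7445822 to 7455975, plus strand), the matrix metalloproteinase stromelysin-1, gave the smallest adjusted p of all genes (2.339e-05). Its level was 17.4 to 29.6 CPM in room air (median 23.9) and 10.1 to 16.7 CPM after hyperoxia (median 12.3), a 1.92-fold fall (log2 -0.94 ± 0.10). All 12 exposed lungs lay below all 12 controls, and within the genotypes the log2 fold change ranged from -1.26 ± 0.17 in XXF to -0.52 ± 0.17 in XXM mice. Ciita (ENSMUSG00000022504, chromosome 16 at 10480059 to 10528418, plus strand) is the master regulator of MHC class II genes. It ranged from 15.8 to 23.6 CPM (median 18.3) in room air and from 7.13 to 14.7 CPM (median 10.9) after hyperoxia, a 1.76-fold fall (log2 -0.81 ± 0.09, adjusted p = 4.69e-05). The other 4 genes that fell without overlap also belong to immune recognition or to the interferon response. Gbp5, an interferon-induced guanylate-binding protein, ranged from 8.46 to 20.5 CPM in room air and from 5.06 to 7.24 CPM after hyperoxia. Uba7, the enzyme that activates the ubiquitin-like protein ISG15, fell 1.39-fold from a median of 79.4 to 59.9 CPM. Ulbp1, a ligand of the natural killer receptor NKG2D, fell 2.3-fold, with 8.12 to 11.1 CPM in 5 room air XX lungs, 3.89 to 5.16 CPM in the other 7 room air lungs and 1.77 to 3.59 CPM after hyperoxia. H2-Q5 fell 2.17-fold, but it belongs to a family of near-identical class I genes whose reads the counting may have split, and Gbp5 has close paralogs too, so both values are uncertain.

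**Figure D2:**
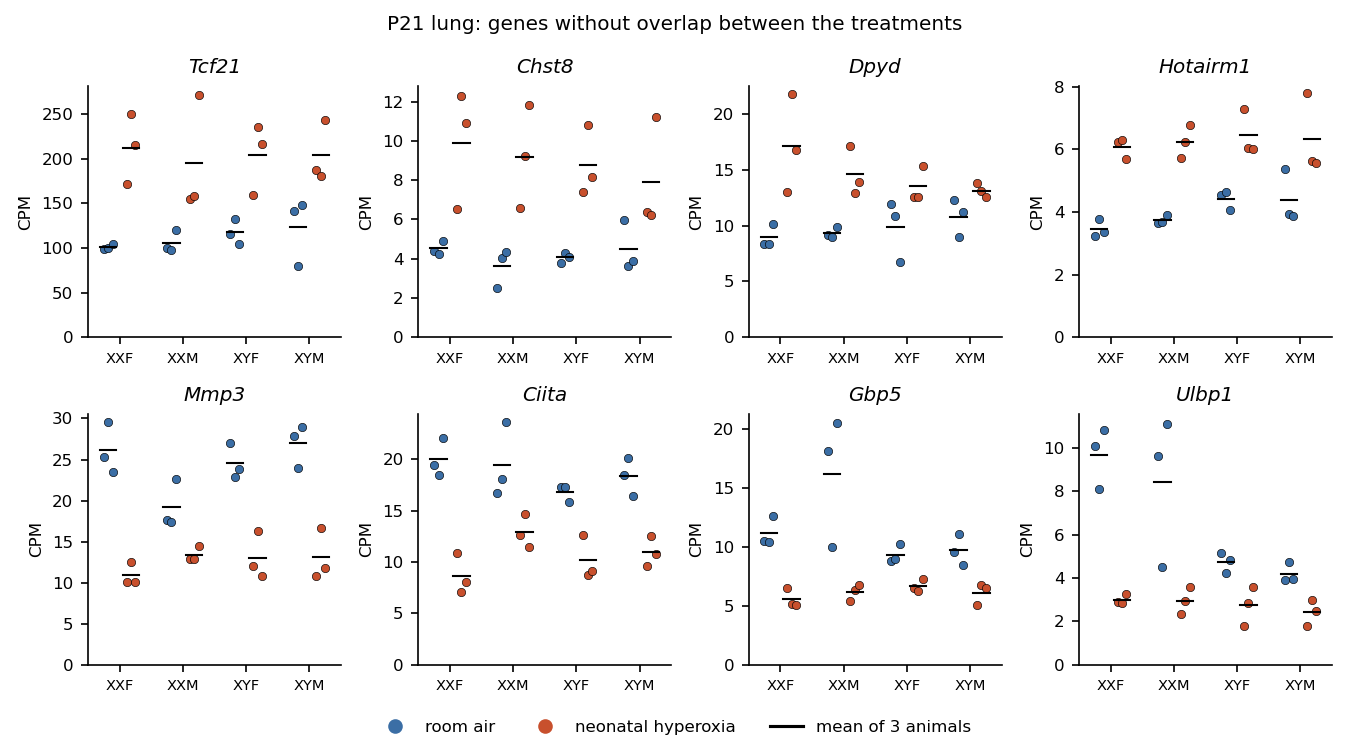
CPM of 8 of the 10 genes without overlap in each of 24 lungs, by genotype, with room air in blue, hyperoxia in red and a bar at the mean of 3 animals. In the upper row every red point lies above every blue point of the gene, as with Tcf21 at 155 CPM or more against 148 CPM or less, and in the lower row every red point lies below.

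Among the gene lists, that of cell division held the largest share of members that fell, against controls that were not alike, as described below. Of 50 genes that act in S phase and mitosis, 46 fell and 0 rose (5.66% of all genes fell), with a median log2 fold change of -1.19. The 4 that did not pass the test were Pcna (0.96-fold, adjusted p = 0.559), Mcm7 (0.84-fold, adjusted p = 0.0522), Tyms (0.77-fold, adjusted p = 0.0621) and Mybl2 (0.82-fold, adjusted p = 0.288), of which the first 3 serve DNA synthesis. Mki67, the proliferation antigen Ki-67, had 28.4 to 117.5 CPM in room air (median 41.3) and 16.4 to 32.8 CPM after hyperoxia (median 21). It fell 2.83-fold (log2 -1.5 ± 0.18, adjusted p = 5.876e-05), with an overlap between the lowest room air and the highest exposed lungs. Ccnb1, the cyclin that drives entry into mitosis, had 2.84 to 16.5 CPM in room air and 1.37 to 3.02 CPM after hyperoxia, and fell 3.25-fold (log2 -1.70 ± 0.23, adjusted p = 0.000139). Top2a, the topoisomerase that untangles sister chromatids, went from a median of 29.4 to 12.9 CPM, and Cdk1, the mitotic kinase, from 10.9 to 5.61 CPM. Changes were smaller in the replication licensing genes, where Mcm2 fell 0.57, Mcm3 0.34, Mcm4 0.22 and Mcm6 0.34 on the log2 scale.

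The room air animals were not alike in these genes. The summed level of the 50 genes was 1210 to 1290 CPM in 5 of the 6 XX room air lungs (animals 34, 35, 36, 37 and 40) and 461 to 614 CPM in the other 7 room air lungs, among them the XXM animal 39 at 506 CPM. The exposed lungs lay together at 391 to 472 CPM. Mki67 showed the same division, with 107 to 117.5 CPM in the 5 and 28.4 to 44.3 CPM in the 7. The library totals of the 5, from 6760209 to 21668293 counts, lay within the range of the 7. The same 5 lungs stood apart in the circadian clock list, which summed to 680 to 732 CPM in them, 907 to 1760 CPM in the 7 and 1000 to 1330 CPM after hyperoxia. They also stood apart in a list of genes that the study names, with 272 to 304 CPM against 477 to 674 CPM in the 7. So did their sums for the NK cell and WNT lists given under other observations. What sets these 5 lungs apart was not tested. A fit of the 12 XY animals, which holds none of the 5, still put 12 of the 50 genes below room air (129 genes fell in that fit, 0.745% of those tested), with a median of -0.558. The same fit of the 12 XX animals gave 45 of 50 (388 fell, 2.26% of those tested) with a median of -1.71. Mki67 fell in both, by 2.03 ± 0.24 on the log2 scale in XX (adjusted p = 0.000708, edgeR) and by 0.95 ± 0.11 in XY animals (adjusted p = 0.00221). Markers of thymocytes, which divide in the thymus beside the lung, summed to 77.5 to 194 CPM in room air and 81.9 to 147 CPM after hyperoxia, and 0 of 13 tested passed in either direction. Their part in the result was not tested.

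Promoters of cell cycle genes are known to carry CHR elements and CCAAT boxes, bound by the DREAM complex and NF-Y. Among the 50 genes, 42 have a RefSeq window in the table used (GRCm38.p6, here the 250 bases before the start). The CHR core TTTGAA occurred on either strand in 11 of 42 (26.2%) against 13.5% of 12733 tested genes with a window, and CCAAT in 30 of 42 (71.4%) against 39.1%. Both occurred in 10 (23.8%) against 5.94%. These are counts of letters and not of bound sites. Below, 2 proliferation genes that fell and hold both motifs show the arrangement, with the matches in capitals. They are Mki67 (chr7:135716380-135716629, minus strand) and Kif11, a spindle motor (chr19:37376132-37376381, plus strand).
Mki67: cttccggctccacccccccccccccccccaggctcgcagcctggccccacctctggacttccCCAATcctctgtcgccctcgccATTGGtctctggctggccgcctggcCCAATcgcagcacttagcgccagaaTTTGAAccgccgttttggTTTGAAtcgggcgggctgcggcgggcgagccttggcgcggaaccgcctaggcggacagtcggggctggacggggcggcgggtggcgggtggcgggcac
Kif11: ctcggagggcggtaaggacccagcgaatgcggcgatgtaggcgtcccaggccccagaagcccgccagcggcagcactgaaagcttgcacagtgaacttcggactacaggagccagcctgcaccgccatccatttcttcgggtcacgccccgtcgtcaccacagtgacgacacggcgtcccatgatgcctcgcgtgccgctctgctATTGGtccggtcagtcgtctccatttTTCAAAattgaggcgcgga
Mki67 has the CHR core at 2 places downstream of its CCAAT matches, and Kif11 has 1 match of each, both on the opposite strand. Kif11 itself fell 2.66-fold, from a median of 10.1 to 4.61 CPM (log2 -1.41 ± 0.20, adjusted p = 0.000142).

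Genes of heart muscle formed the second large group of falls. In mouse lung they are expressed by the cardiomyocyte sleeves around pulmonary veins, and pieces of atrium can be cut out with the lung. Of 23 tested, 15 fell and 0 rose (5.66% of all genes fell), with a median log2 fold change of -1.66. Myh6 (ENSMUSG00000040752, chromosome 14 at 54941921 to 54966927, minus strand), the atrial myosin heavy chain, ranged from 50.3 to 244 CPM in room air (median 159) and from 5 to 339 CPM after hyperoxia (median 20.2). A single exposed lung, XXF animal 49, held the 339 CPM, and the other 11 exposed lungs reached at most 44.3 CPM, below the lowest control. The fall was 5.22-fold (log2 -2.38 ± 0.51, adjusted p = 0.00432), and without animal 49 the log2 fold change was -2.92 (adjusted p = 8.433e-06). Actc1, cardiac actin, fell 3.13-fold from a median of 123 to 38.2 CPM, Tnnt2, cardiac troponin T, 3.22-fold from 54.1 to 12.9 CPM, and Ryr2, the calcium release channel, 2.06-fold from 17.9 to 7.62 CPM. The summed level of the list was 509 to 1410 CPM in room air, 86.2 to 523 CPM in 11 exposed lungs and 1210 CPM in animal 49. In the XX animals alone, where animal 49 stands, 0 of the genes passed (median -1.47). In the XY animals alone 11 fell (median -1.5), where 0.745% of tested genes fell.

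Markers of other tissue around the lung varied between animals as well. Skeletal muscle genes summed to 58.8 to 10400 CPM in room air and 31.3 to 3210 CPM after hyperoxia, and 0 of 20 passed the test. Squamous epithelium genes, known from skin and oesophagus, summed to 6.63 to 5100 CPM and 5.25 to 3170 CPM. With the squamous sum as a covariate 17 cardiac genes fell, with a median of -1.52, and the part of tissue cut along with the lung was not otherwise tested.

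Interferon-stimulated genes were lower after hyperoxia. Of 24 tested, 15 fell and 0 rose (median -0.494), where 5.66% of all genes fell. Oas2, an enzyme that makes the activator of RNase L, ranged from 9.54 to 22.1 CPM in room air (median 13.3) and from 2.6 to 12.1 CPM after hyperoxia (median 7.83), a 2.15-fold fall (log2 -1.10 ± 0.16, adjusted p = 0.000183). Isg15, the ubiquitin-like modifier, had 26.9 to 62.1 CPM in room air (median 33.5) and 11.1 to 41.7 CPM after hyperoxia (median 25.8), and fell 1.52-fold (log2 -0.61 ± 0.12, adjusted p = 0.0018). The groups overlapped in both genes, and the lowest levels were those of exposed animals. Gbp2, a guanylate-binding protein, fell 1.33-fold from a median of 65 to 54.1 CPM, and Mx1, an antiviral GTPase, went from a median of 7.34 to 4.26 CPM. The regulator Irf7 fell 1.36-fold. Ifit3 did not pass the test, at 1.01-fold (adjusted p = 0.968). The list summed to 711 to 1170 CPM in room air and 508 to 977 CPM after hyperoxia, with the XXF exposed lungs lowest at 508 to 648 CPM. Its median was -0.691 for XXF and -0.47 for XXM mice, and -0.243 for XYF and -0.361 for XYM mice. Among genotypes 0 of the 24 differed, where 0.0223% of all tested genes did, so this count cannot show a shared response.

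The interferon-stimulated response element was searched on both strands of the same windows as GAAA, then any 2 bases, then GAAA again. It occurred in 9 of the 17 interferon genes with a window (52.9%) against 3.36% of all tested genes with a window. Isg15 (chr4:156200819-156201068, minus strand) and Gbp2 (chr3:142620413-142620662, plus strand) are shown because both fell and each carries a match, in capitals.
Isg15: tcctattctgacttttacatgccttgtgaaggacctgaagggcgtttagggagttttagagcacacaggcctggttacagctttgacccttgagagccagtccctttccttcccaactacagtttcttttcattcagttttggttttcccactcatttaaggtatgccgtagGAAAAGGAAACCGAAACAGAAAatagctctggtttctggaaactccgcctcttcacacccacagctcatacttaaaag
Gbp2: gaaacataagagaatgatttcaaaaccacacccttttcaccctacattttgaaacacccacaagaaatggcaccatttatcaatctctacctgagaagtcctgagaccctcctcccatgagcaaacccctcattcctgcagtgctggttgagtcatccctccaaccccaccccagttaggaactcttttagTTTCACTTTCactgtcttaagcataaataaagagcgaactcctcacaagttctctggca
In Gbp2 the match reads on the opposite strand. In Isg15 overlapping matches make up a longer run. A match says only that these letters stand in the window.

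Cytotoxic genes of natural killer (NK) cells accounted for the falls among the 16 T and NK cell markers. The 5 that fell were Prf1, Klrb1c, Gzma, Ncr1 and Gzmb, and 0 rose (5.66% of all genes fell). The median of the list was -0.102. Gzma, the granule protease granzyme A, had 4.57 to 20.1 CPM in room air (median 10.1) and 1.02 to 15.9 CPM after hyperoxia (median 3.31), and fell 2.55-fold (log2 -1.35 ± 0.25, adjusted p = 0.0016). Prf1, the pore-forming perforin, fell 2.56-fold from a median of 2.1 to 0.72 CPM. Ncr1, the activating receptor NKp46, fell 2.57-fold from a median of 1.41 to 0.378 CPM. These 5 genes overlapped between treatments and are expressed at a few CPM. Among 20 cytokines and acute phase genes 5 fell and 0 rose, namely Ccl3, Ccl4, Ccl5, Csf1 and Spp1, of which Ccl5 is a chemokine that T and NK cells make. B cell markers fell in 2 of 16, Cr2 and Fcer2a. Neutrophil markers passed in 0 of 16 and alveolar macrophage markers in 2 of 14, both lower, Krt79 and Itgax (CD11c), the latter at 1.33-fold. With 1 animal left out, Ccl3 no longer passed in 15 of 24 fits, Fcer2a and Krt79 in 13 each and Cr2 in 4. Of monocyte and interstitial macrophage markers 1 of 16 rose, Apoe, from a median of 538 to 670 CPM.

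**Figure D3:**
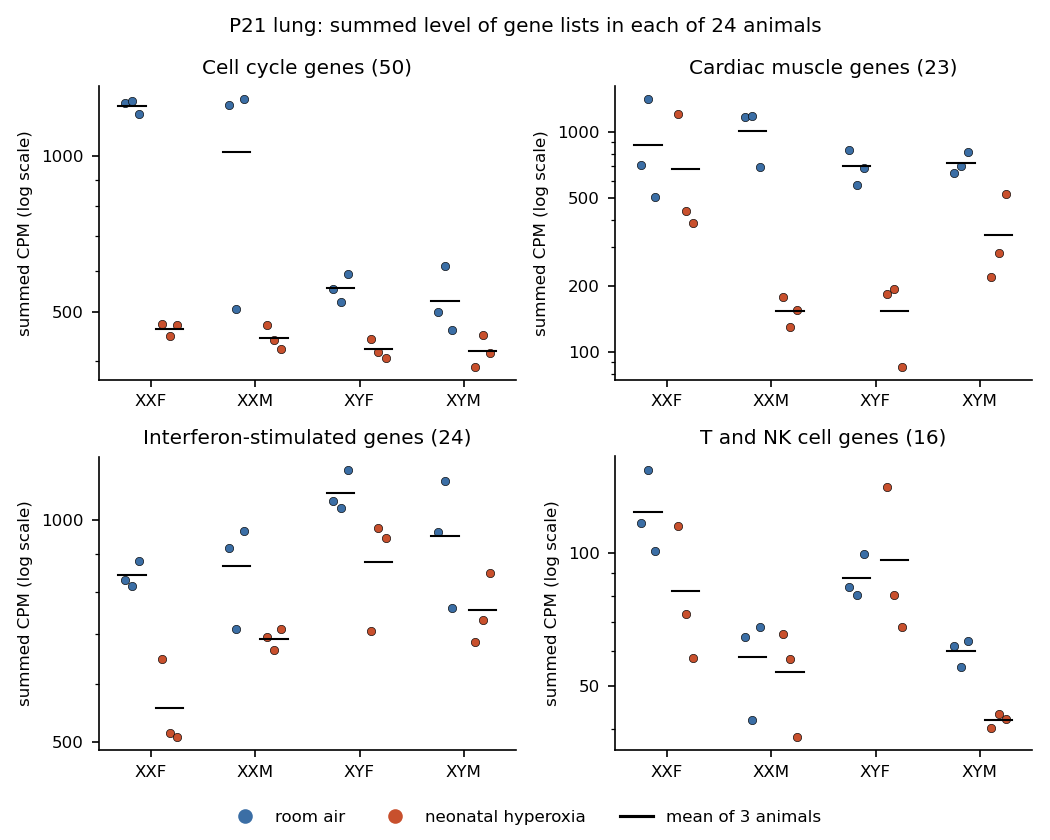
Summed CPM on a log scale of 4 gene lists in each of 24 lungs, by genotype, with room air in blue, hyperoxia in red and a bar at the mean of 3 animals. Cell cycle sums of 5 room air XX lungs stand at 1210 to 1290 CPM above all others, cardiac sums are lower in 11 of 12 exposed lungs than in nearly all controls, and the T and NK cell sums overlap in 3 of the 4 genotypes.

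Fibroblast genes gave the clearest rises. Of 14 matrix fibroblast and lipofibroblast markers 5 rose, Tcf21, Wnt2, Npnt, Col13a1 and Meox2, and 1 fell, Pi16 (5.05% of all genes rose), with a median log2 fold change of 0.192. The summed level was 4830 to 6240 CPM in room air and 6010 to 7000 CPM after hyperoxia, so that only the upper end of the controls overlapped. Npnt, the matrix protein nephronectin, had 1267 to 1606 CPM in room air (median 1382) and 1310 to 2060 CPM after hyperoxia (median 1839), a 1.24-fold rise (log2 0.31 ± 0.07, adjusted p = 0.00461). Wnt2, a WNT ligand of distal lung fibroblasts, had 17.9 to 32.1 CPM in room air (median 25.2) and 25.8 to 43.1 CPM after hyperoxia (median 32.9). It rose 1.37-fold (log2 0.45 ± 0.09, adjusted p = 0.00193), and the groups overlapped. Meox2, a mesenchymal homeobox factor, rose 1.28-fold.

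Among 37 signals of alveolar growth 4 rose and 0 fell (median 0.11), where 5.05% of all genes rose. They were Wnt2, Bmp2, Id1 and Fgfr4, that is 2 ligands, a target of BMP signalling and an FGF receptor. Bmp2 had 5.83 to 10.2 CPM in room air (median 7.11) and 8.47 to 14.4 CPM after hyperoxia (median 11.5), and rose 1.52-fold (log2 0.61 ± 0.08, adjusted p = 9.161e-05). Id1, induced by BMP receptors, had 78.2 to 126 CPM in room air (median 91.2) and 104 to 209 CPM after hyperoxia (median 132), with log2 0.46 ± 0.06 (adjusted p = 0.000136). The groups overlapped in both genes. The other 33 members, genes of the FGF, hedgehog, PDGF, TGF-beta and retinoic acid pathways among them, did not pass the test. The count of rises was 3 without animal 52 and 9 without animal 53, so the share of the list that rose is uncertain.

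A few contractile and matrix genes passed the test, in both directions (5.05% of all genes rose and 5.66% fell). Myofibroblast and smooth muscle markers rose in 3 of 15, with 0 lower. They were Aspn, the matrix proteoglycan asporin, at 1.87-fold (24.3 to 61.7 CPM in room air and 27 to 127 CPM after hyperoxia), Tagln, an actin-binding protein, at 1.47-fold, and Mustn1 at 1.13-fold. Pericyte markers rose in 2 of 10, Higd1b and Cox4i2, with 0 lower. Of 20 elastic fibre genes 2 rose, the microfibril proteins Mfap2 (1.21-fold) and Mfap4 (1.25-fold), and 2 fell, Fbln1 and Mfap5. Eln, elastin itself, did not pass, at a median of 3130 CPM in room air and 3109 CPM after hyperoxia (1.05-fold, adjusted p = 0.653). Of 26 collagen and matrix genes 3 fell and 0 rose, Col12a1, Col15a1 and Timp1. With 1 animal left out at a time, Timp1 no longer passed in 21 of 24 fits, Higd1b in 19, Mustn1 in 12, Col15a1 in 8 and Mfap4 in 7. Fbln1, an elastic fibre and basement membrane protein, ranged from 46.2 to 69.7 CPM in room air and from 24.8 to 48.4 CPM after hyperoxia.

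Imprinted growth genes restrain or promote fetal growth, and many of them fall silent after birth. Of 18 tested 3 rose and 0 fell (median 0.252), where 5.05% of all genes rose. Peg3, a paternally expressed zinc finger protein, had 62.6 to 124 CPM in room air (median 81.9) and 66.9 to 269 CPM after hyperoxia (median 176). It rose 1.85-fold (log2 0.89 ± 0.16, adjusted p = 0.00105). The exposed lungs were more spread than the controls, and XXM animal 53 lay within the control range at 66.9 CPM. Cdkn1c, the inhibitor p57, rose 1.32-fold, and Zim1, a neighbour of Peg3, by 0.77 ± 0.21 on the log2 scale. The list had 5 rises without animal 49, 58 or 61. Of 15 glucocorticoid targets 3 rose and 0 fell, with Tsc22d3 (GILZ) going from a median of 401 to 660 CPM, 1.45-fold, at ranges that overlapped (329 to 724 against 273 to 836 CPM). The others were Sgk1 and Klf15, of which Klf15 no longer passed in 10 of 24 fits with 1 animal left out.

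Few markers of the alveolar and capillary cell types passed the test (5.05% of all genes rose and 5.66% fell). Alveolar type 1 markers passed in 0 of 15 (median 0.0102) and general capillary markers in 0 of 10 (median 0.0308). Ager, the type 1 cell receptor RAGE, differed by 0.10 ± 0.10 on the log2 scale. Of 17 alveolar type 2 markers 4 fell and 0 rose. These were the lipid synthesis genes Scd1 (1.49-fold) and Fasn (1.29-fold), the lamellar body transporter Abca3 (1.22-fold) and complement component Hc (1.23-fold), while Sftpc differed by 0.11 ± 0.10 on the log2 scale (adjusted p = 0.516). Scd1 had 1287 to 2775 CPM in room air and 914.5 to 2646 CPM after hyperoxia, with overlapping ranges. Abca3 no longer passed in 13 and Fasn in 12 of the 24 fits that leave out 1 animal. Of 16 pan-endothelial markers the VEGF receptor Kdr fell 1.22-fold and the tight junction protein Cldn5 rose 1.21-fold, and of 12 aerocyte markers Tmcc2 fell. Airway epithelium markers fell in 2 of 19, Muc5b, which no longer passed in 19 of those fits, and Pigr, the receptor that carries IgA into the lumen, at 1.88-fold (39 to 84 CPM in room air and 14.7 to 48.7 CPM after hyperoxia). Few stress genes of the acute injury passed the test at P21. Of 19 p53 targets 1 rose, Phlda3, and 1 fell, Eda2r, and Cdkn1a (p21) did not pass (1.22-fold, adjusted p = 0.248). Of 25 antioxidant genes 1 fell, Sod3, and Nqo1 did not pass (log2 -0.07 ± 0.13). Phlda3 and Eda2r each lost the call in 9 of the 24 fits with 1 animal left out.

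The 12 largest rises, among genes with a mean of 1 CPM or more and 1 sign in all genotypes, were in genes of low level. Slc17a2, of the sodium-phosphate cotransporter family, had 0.877 to 5.48 CPM in room air (median 2.54) and 3 to 16.2 CPM after hyperoxia (median 7.41), a 3.49-fold rise (log2 1.80 ± 0.30, adjusted p = 0.000649). Camk1g, a calmodulin-dependent kinase, rose 3.03-fold from a median of 1.39 to 3.87 CPM (adjusted p = 0.000328), and the 2 groups overlapped only between 1.97 and 3.09 CPM. Rspo4, a secreted enhancer of WNT signalling, rose 2.34-fold (0.756 to 3.19 CPM against 0.846 to 5.12 CPM). Crabp1, a retinoic acid binding protein, rose 2.15-fold from a median of 10.2 to 18 CPM, and 1 exposed lung at 13.9 CPM fell within the control range of 3.18 to 14.4 CPM. Fxyd7, a regulator of the sodium pump, rose 2.18-fold. The antisense transcript Gm40117 rose 2.44-fold, with the limit given for Hotairm1. Stfa1, Stfa2 and BC100530, stefin A genes of neutrophils, rose 3.15-fold, 3.41-fold and 3.23-fold. They are near-identical copies whose reads cannot be assigned with certainty, and 0 of the 16 neutrophil markers passed the test. The last 3, Ftcd, Agt and Serpina7, are known as liver genes. Agt, however, stood at 72.8 to 157 CPM in P5 room air lungs, where the liver gene Alb had 1.32 to 7.16 CPM. In exposed XXF animal 51 the liver genes summed to 5260 CPM, against at most 29.2 CPM in any other lung. Ftcd reached 11.6 CPM in that lung and at most 0.779 CPM in the others, so it met the mean of 1 CPM only through that lung. Its log2 fold change went from 2.28 ± 0.69 to 1.02 without animal 51 (adjusted p = 0.0201, edgeR). Agt, angiotensinogen, went from 1.11 to 0.76 (adjusted p = 0.0289) and lost its call in 9 of the 24 fits with 1 animal left out, and Serpina7, thyroxine-binding globulin, from 1.34 to 1.19.

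The 12 largest falls were mostly in genes of cell division and of striated muscle. Pimreg, Iqgap3, Cenpf, Hmmr and Pbk act in cell division and fell 4.1-fold to 4.77-fold. Myh6, Tcap, Mybphl and Ckmt2 belong to striated muscle, and Kcnj3 encodes a potassium channel subunit of the atrium. Ckmt2, the mitochondrial creatine kinase of sarcomeres, showed the largest fall of all those named, 7.34-fold, with 5.99 to 45.7 CPM in room air (median 8.86) and 0.0641 to 7.65 CPM after hyperoxia (median 0.744), with an SE of 0.6 on the log2 scale. Mapk10, the kinase JNK3, fell 4.31-fold, with 1.12 to 2.99 CPM in room air and 0.218 to 1.87 CPM after hyperoxia (log2 -2.11 ± 0.27, adjusted p = 9.161e-05). Its only exposed lung above 0.693 CPM was animal 49, which also carried the cardiac genes. Slc17a7, a vesicular glutamate transporter, fell 5.97-fold, with 0 to 0.208 CPM in 11 exposed lungs, 1.95 CPM in animal 49 and 0.419 to 2.01 CPM in room air.

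Of a list of genes that the study names from its RNA-Seq, chosen on these animals and so no independent evidence, 12 were tested at P21. The study also measured many of them by qPCR in other mice, Flt3 at P5, and those data are not used here. Peg3 rose, and Hamp, Hk3, Tlr7 and Flt3 fell. Hamp, the iron hormone hepcidin, had 0.877 to 3.09 CPM in room air and 0.109 to 3.15 CPM after hyperoxia (log2 -1.60 ± 0.38, adjusted p = 0.00827). Tlr7, the receptor for single-stranded RNA, had 5.35 to 25.3 CPM and 4.43 to 16.8 CPM (log2 -0.50 ± 0.15). Hk3, the hexokinase of myeloid cells, fell 1.53-fold and Flt3, a receptor of dendritic cell precursors, by 0.41 ± 0.13 on the log2 scale. The levels overlapped between treatments in all 4 of these falls. With 1 animal left out at a time, Hk3 no longer passed in 14, Tlr7 in 15 and Flt3 in 17 of 24 fits, and the number of falls ran from 1 (without animal 34) to 6 (without animal 49). The other 7 did not pass.

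Few genes responded differently among the genotypes by edgeR, and their number was not stable. It ran from 0 to 129 with 1 animal left out and was higher by DESeq2 and without a filter. Over the 3 interaction terms together, 4 genes differed (0.0223% of those tested), Ucp1, Cidea, Pck1 and Fabp4, all known from brown or white fat, and 1363 genes had an unadjusted p under 0.05. In Ucp1, the uncoupling protein of brown fat, the log2 fold change was 9.36 ± 1.61 in XXF and -7.57 ± 1.39 in XXM mice, and the highest lungs of each treatment reached 208 and 147 CPM against medians of 0.312 CPM after hyperoxia and 0.489 CPM in room air. Adipose genes summed to 654 CPM in exposed XXF animal 49 and to 398 CPM in room air XXM animal 39, and to 15.8 to 264 CPM in the other lungs. When the response of the XX animals was set against that of the XY animals in 1 contrast, 11 genes differed (0.0613%), with 1026 at an unadjusted p under 0.05. Among them were Ccna2, Cdc20, Tpx2 and Prc1 of the 50 cell cycle genes. In XX animals, whose room air groups hold the lungs with high cell cycle sums, these fell further by 1.69 to 1.83 on the log2 scale. The erythroid gene Rhag and the reticulocyte gene Slfn14 differed the other way, by 4.34 and 3.36. This call rested on single animals, since leaving out 1 animal at a time gave 0 to 236 genes, with 236 without animal 39, 78 without 48, 55 without 42, 32 without 51, 26 without 58 and 0 in the other 19 fits. The response of mice with ovaries against that of mice with testes differed in 0 genes by edgeR (0% of those tested), with 542 at an unadjusted p under 0.05.

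**Figure D4:**
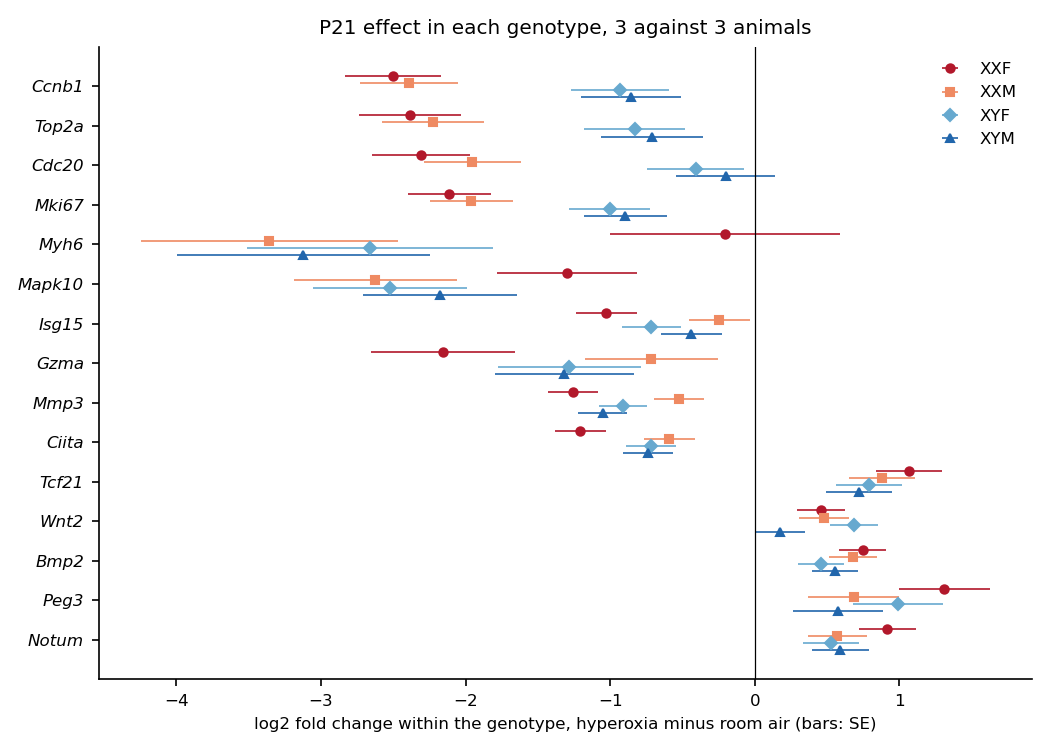
Log2 fold change, hyperoxia minus room air, within each genotype for 15 genes, from 3 exposed and 3 room air animals each, with bars for the SE. The 4 cell cycle genes at the top lie further from 0 in XXF and XXM mice (Mki67 at -2.11 and -1.96) than in XYF and XYM mice (-1 and -0.89). The room air XXF and XXM groups hold the lungs that stood high in cell cycle genes. Myh6 lies near 0 in XXF mice only (-0.21), and the 5 genes at the bottom are above 0 in each genotype.

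Measured in the same way at P5, at the end of exposure, 3064 genes were higher and 3254 lower in oxygen (17.3% and 18.4% of 17677). The animals of the 2 ages are different mice. The log2 fold change at P21 differed from that at P5 in 5205 of 18732 genes (27.8%). The difference, P21 minus P5, was positive in 2895 of them and negative in 2310. Of the 906 genes that rose at P21, 889 were tested at P5, where 98 were higher and 273 lower. Of the 1015 that fell, 961 were tested, with 213 higher and 220 lower at P5. A change of sign with the difference itself past the test was seen in 543 of the former and 428 of the latter. These genes were chosen by their P21 call, whose values also enter the difference, and this favours such counts. The share over all genes was not counted, so no conclusion is drawn from them.

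At P5, 33 of the 50 cell cycle genes were lower and 4 higher in oxygen (median -0.535), or 34 and 0 without the exposed XXM animals 22 and 23. The difference of the log2 fold changes, P21 minus P5, was negative in 37 genes by its test and positive in 0. The list median at P21 was -1.79 in XXF and -1.66 in XXM mice, whose room air groups hold the lungs with the high cell cycle sums. It was -0.568 in XYF and -0.522 in XYM mice, and the difference between ages was not tested within them. Over all genotypes Mki67 was lower by 0.75 ± 0.10 at P5 and by 1.5 ± 0.18 at P21 on the log2 scale. The acute stress genes went the other way in time. At P5, 13 of 19 p53 targets and 21 of 25 antioxidant genes were higher in oxygen, and Cdkn1a, which rose by 1.86 ± 0.09 at P5, differed between the ages by -1.56 ± 0.19 (adjusted p = 2.771e-08). Interferon genes were higher in 6 and lower in 1 of 23 at P5 (median 0.183), and the difference was negative in 14 of 24 and positive in 0.

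Several fibroblast and growth genes were lower at P5 and higher at P21. Of the 14 fibroblast markers 10 were lower and 2 higher at P5 (median -0.282), and the difference was positive in 11. Tcf21 was lower by 0.62 ± 0.05 in oxygen at P5 and higher by 0.86 ± 0.11 at P21, a difference of 1.49 ± 0.12 (adjusted p = 4.53e-12). Rspo4 went from -1.67 ± 0.19 to 1.23 ± 0.22, Chst8 from -1.62 ± 0.22 to 1.10 ± 0.14, Crabp1 from -1.43 ± 0.36 to 1.11 ± 0.18, and Bmp2 from -0.69 ± 0.08 to 0.61 ± 0.08. Pigr and Eda2r showed the reverse. Pigr was higher by 1.82 ± 0.30 at P5 and lower by 0.91 ± 0.20 at P21. Eda2r, a death receptor induced by p53, was higher by 2.28 ± 0.35 and lower by 0.49 ± 0.15. Gzma was lower at both ages, by 1.47 ± 0.40 at P5 and 1.35 ± 0.25 at P21, with a difference of 0.16 ± 0.44 (adjusted p = 0.83). Ciita and Uba7 did not pass at P5 (-0.03 ± 0.14 and 0.01 ± 0.06). Without the exposed XXM animals 22 and 23, 3888 genes were higher and 4238 lower at P5, against 3064 and 3254 with them. The P5 values of single genes and the differences between ages given here keep both animals.

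**Figure D5:**
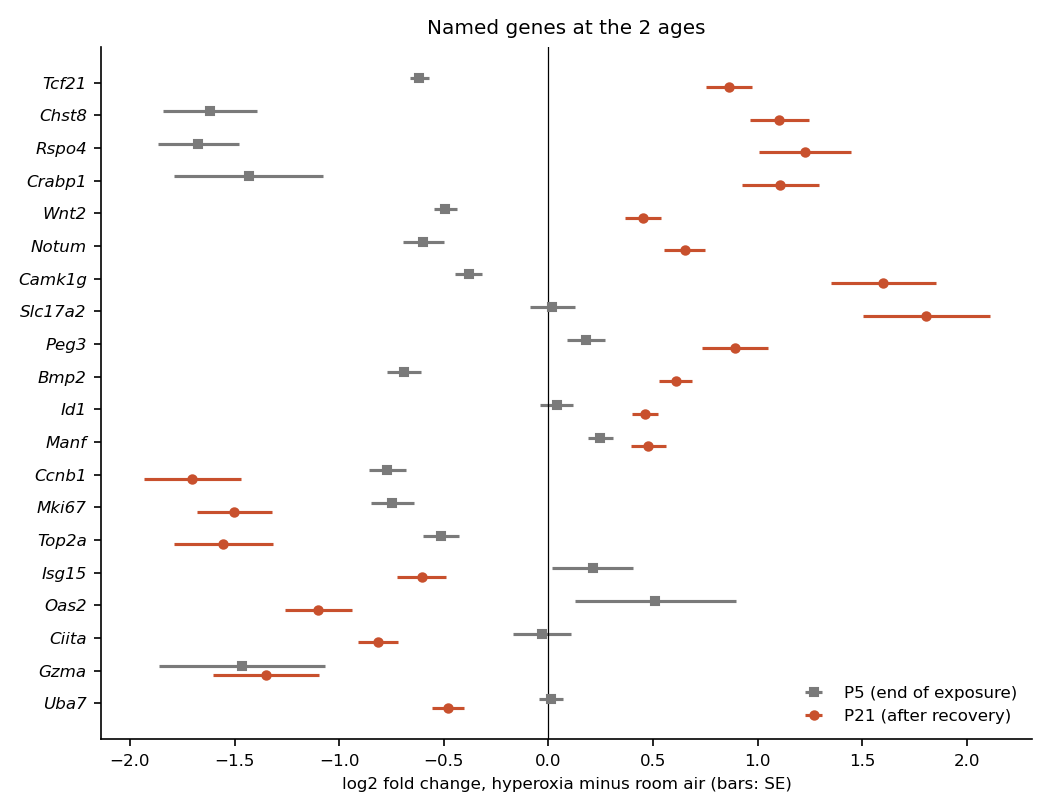
Log2 fold change, hyperoxia minus room air, of 20 named genes at P5 (grey squares) and at P21 (red circles), each from 12 exposed and 12 room air animals, with bars for the SE. Tcf21, Chst8, Rspo4, Crabp1, Wnt2, Notum, Camk1g and Bmp2 lie below 0 at P5 and above 0 at P21, while Ccnb1, Mki67 and Top2a lie below 0 at both ages and further from 0 at P21. The P21 values of Ccnb1, Mki67 and Top2a include the room air XX lungs that stood high in cell cycle genes.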

How the data were processed

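RNA of 24 P21 lungs, 12 exposed and 12 in room air, was compared, and 24 P5 lungs were used for the difference between ages. The authors deposited raw read counts per gene, whole numbers without normalization. HISAT2, featureCounts and mm10 are named in the submitters' processing notes, and no annotation release or strand setting was found in them. Of 52550 identifiers 52403 were found in GENCODE on GRCm38, and the other 147 hold 0.00824% of counts. All 48 columns matched a label.

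Counts were fitted in R 4.3.3 with edgeR 4.0.16 (filterByExpr, TMM, quasi-likelihood F test, two-sided) on genotype and treatment, with 19 residual degrees of freedom. P-values were adjusted by Benjamini-Hochberg over the tested genes. Differences among genotypes used 8 group means, and the difference between ages used 1 model over both. The steps were tested on simulated data. Animals are named by their label number. Animals of 1 group differed by more than counting noise in all 24 pairs (chi-square per degree of freedom 5.03 to 103, genes with at least 20 counts).

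Members, lists and tests were chosen with earlier results of these data known. Named are the 12 largest rises and 12 largest falls, among called genes with at least 1 CPM on average and 1 sign in all genotypes. Called genes without overlap are named too, as are up to 4 called and the 2 most abundant members of each list. A list of genes that the study names and up to 5 genes by difference among genotypes complete the rule. Other members and the XX and XY contrast genes were named after their values were seen. Alternatives used DESeq2 1.42.0 and sva 3.50.0, and counts thinned with a fixed seed. The package limma 3.58.1 was loaded beside edgeR and ran no alternative fit. Promoters are from RefSeq. A few single-gene results are not reported here.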

Additional observations from a re-analysis of the deposited data

Results flagged for a closer look

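Named genes changed in opposite directions at the 2 ages. Of 105 named genes called at P21, 100 were tested at P5, and 28 were called the other way there with the difference of the log2 fold changes past the test too (edgeR, age by treatment term), 20 of them higher and 8 lower at P21. The comparisons hold different animals. Among all genes called at P21 the share was close to this, with 273 of 889 risen and 213 of 961 fallen genes called the other way at P5, so nothing here is particular to the named genes.

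The difference, P21 minus P5, was positive for the fibroblast and matrix genes Tcf21 (1.49), Wnt2 (0.956), Meox2 (0.618), Npnt (0.57), Mfap2 (1.28), Mfap4 (0.698) and Aspn (1.4). It was positive for the smooth muscle and pericyte genes Tagln (0.848), Mustn1 (1.39) and Cox4i2 (0.549). Among signals and growth regulators it was 1.31 for Bmp2, 0.775 for Fgfr4, 2.91 for Rspo4, 0.611 for Cdkn1c and 0.806 for Tsc22d3. Further positive values were 1.98 for Camk1g, 2.54 for Agt, 2.56 for Crabp1, 2.73 for Chst8 and 0.637 for Cldn5. Agt rests in part on animal 51, as given in the report.

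The difference was negative for the epithelial genes Pigr (-2.74), Fasn (-0.803) and Abca3 (-0.645), and for the VEGF receptor Kdr (-0.53). It was negative for the p53 target Eda2r (-2.76), the protease inhibitor Timp1 (-0.997), and the myeloid genes Itgax (-1.08) and Hk3 (-1.26).

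Genotypes differed in the hyperoxia effect at P21 for Ucp1 (adjusted p = 0.00841), Cidea (adjusted p = 0.0169), Pck1 (adjusted p = 0.0169) and Fabp4 (adjusted p = 0.0273, edgeR), which are fat genes and high in animals 49 and 39. Between XX and XY animals the log2 fold changes differed by -1.76 in Ccna2, -1.83 in Cdc20, -1.7 in Tpx2 and -1.69 in Prc1, and by 4.34 in Rhag and 3.36 in Slfn14. Ccna2, Cdc20, Tpx2 and Prc1 are cell cycle genes, and the room air XX groups hold the lungs with high cell cycle sums. Erythroid genes summed to 11800 to 39600 CPM in room air and 8870 to 33700 CPM after hyperoxia, and their part in these differences was not tested.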

How the results depend on the processing

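The pooled counts of 906 genes up and 1015 down stayed within 1.5 times under DESeq2 (1204 and 1357), RLE factors (880 and 1031), no filter (858 and 727), 8 group means (846 and 1112), no genotype term (922 and 968), 1 surrogate variable (803 and 1033) and the squamous sum as covariate (797 and 1015). Fits of 12 animals, chosen after seeing the data, gave 167 up and 388 down for XX and 71 up and 129 down for XY. A 1.5-fold minimum left 135 up and 446 down. Thinning all libraries to 6042939 counts left 585 up and 746 down among 15616 genes, the number of genes tested falling with the counts. Leaving out 1 animal at a time gave 639 (without animal 34) to 1233 (without 53) up and 756 (without 51) to 1387 (without 53) down. The 4 genes that differed among genotypes became 175 by DESeq2 and 113 without a filter, and 0 to 129 with 1 animal left out, the highest without animal 39. The cause was not tested. The XX against XY contrast, added after seeing the data, gave 0 to 236 genes. The difference between ages gave 2748 to 3236 positive and 2141 to 2639 negative genes. Among named genes, none called in the main fit changed sign under these settings, and the signs of other called genes were not compared. Some uncalled named genes changed sign with 1 animal left out, such as the liver gene Ahsg (-1.16 without animal 51 to 4.49). No paired analysis was possible because each replicate number names 1 animal and occurs in a single group.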

Other observations

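Lists of 4 further groups were written after the calls were seen, and their counts support nothing on their own. Over all genes 5.05% rose and 5.66% fell. Of 19 NK cell genes tested 14 fell and 0 rose (median -1.07), with sums of 35.5 to 81.4 CPM in room air and 18.8 to 57.5 CPM after hyperoxia. The room air XX lungs with high cell cycle sums were the highest controls here, at 57.6 to 81.4 CPM against 35.5 to 54.8 CPM in the others. Klra members of this list are near-identical copies. Of 14 MHC class II genes 7 fell and 0 rose (median -0.429), among them Cd74, the invariant chain (-0.54 ± 0.10 on the log2 scale), and Rfx5, a factor of their promoters (-0.55 ± 0.06). Their sums ran from 1590 to 2600 CPM in room air and from 1060 to 2280 CPM after hyperoxia.

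Of 26 WNT ligands and modulators 6 rose and 0 fell (median 0.178). They were Wnt2, Wnt5b, Wnt10b, Rspo4, the WNT deacylase Notum and Sfrp2, a secreted WNT-binding protein. The sums ran from 527 to 620 CPM in room air and from 593 to 708 CPM after hyperoxia. The room air XX lungs with high cell cycle sums were the lowest controls in this list, at 527 to 551 CPM against 554 to 620 CPM in the others. Of 20 ER chaperone and unfolded protein response genes 5 rose and 0 fell (median 0.13), namely Manf, Creld2, Xbp1, Atf4 and Ddit3.

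Other lists held few changes, where 5.05% of all genes rose and 5.66% fell. Of 19 circadian clock genes 1 rose, Cry1, of 10 platelet genes 1 rose, Gp1bb, of 10 mast cell and basophil genes 1 fell, Hdc, and of 8 mesothelial genes 1 rose, Upk1b. Angiogenic signalling genes rose in 2 of 33, Hes1 and Hey1, and fell in 1, Kdr. Immediate early genes passed in 0 of 16, erythroid genes in 0 of 15, adipose genes in 0 of 14 and liver genes in 0 of 9.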
